A study of Mus musculus with 10 samples.

Results

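Death ligands, death receptors and the proteins that decide between apoptosis and necroptosis were followed as 9 genes, chosen by symbol for their roles, out of 36528 gene identifiers in the count files. They are Tnfsf10, Fas, Ripk1, Casp8, Cflar, Ripk3, Mlkl, Bcl2l11 and Mcl1, each matched to its Entrez identifier, and all 9 passed the expression filter that left 13588 genes for testing. The RNA came from tumour-associated macrophages purified from C57Bl/6 mice carrying MC-38 tumours, which grow from a mouse colon carcinoma line. Of 10 libraries, 5 came after treatment with anti-MerTK, an antibody to a receptor kinase through which macrophages take up apoptotic cells, and 5 after anti-gp120, an antibody to an HIV envelope protein that served as the comparison. Polyadenylated RNA was sequenced, and the series describes the state 24 h into anti-MerTK treatment. The labels give no age and do not say whether libraries came from separate mice; the p-values therefore describe the spread among these 10 libraries, which could be technical.

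Death receptors of the TNF receptor superfamily recruit an adaptor and caspase-8 when their ligands bind, and active caspase-8 starts apoptosis. When caspase-8 is blocked, the kinases RIPK1 and RIPK3 can instead activate MLKL, which breaks the plasma membrane in necroptosis. A separate mitochondrial route is set by the BCL2 family, in which BH3-only proteins such as BIM (Bcl2l11) are held by survival proteins such as MCL1, and unopposed BAX and BAK open the outer mitochondrial membrane. In macrophages several of these genes, among them Tnfsf10 and Mlkl, are known to respond to interferon.

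The libraries held 33159858 to 46108687 counted reads. Macrophage markers were abundant, with 10 genes (C1qa, Csf1r, Adgre1 and others) summing to 31711 to 37999 CPM (a gene's reads relative to all counted reads of the library) after anti-MerTK and 29457 to 39534 CPM after anti-gp120. Of these, 1 was called higher, Fcgr1 (log2 fold change 0.64, edgeR adjusted p = 0.0247), and 0 lower. Fcgr1 was at 1058 to 1586 CPM after anti-MerTK and 624 to 887 CPM after anti-gp120. In the epithelial, neutrophil and plasmacytoid dendritic cell lists a single gene made up most of the sum. Epithelial markers (7 genes) summed to 25.8 to 34.2 CPM after anti-MerTK and 36.0 to 59.9 CPM after anti-gp120, nearly all of it Cdh1, which was lower after anti-MerTK (log2 fold change -0.72, edgeR adjusted p = 0.0244), while Epcam was at most 0.123 CPM, Krt8 reached 1.56 CPM and Cldn4 was at 0 throughout. Neutrophil markers (10 genes) summed to 70.1 to 91.4 CPM after anti-MerTK and 62.5 to 105 CPM after anti-gp120, mostly Csf3r, with Ly6g at most 0.0610 CPM and 0 genes called. Plasmacytoid dendritic cell markers (6 genes) summed to 52.7 to 65.8 CPM after anti-MerTK and 53.9 to 76.6 CPM after anti-gp120, mostly Tcf4, with Siglech at most 0.0557 CPM, Klk1 at 0 throughout and Cox6a2 higher (log2 fold change 0.74, edgeR adjusted p = 0.0436). Conventional dendritic cell markers (7 genes) summed to 48.8 to 92.4 CPM after anti-MerTK and 25.0 to 64.1 CPM after anti-gp120, with 0 genes called. Xcr1 was at 11.3 to 50.4 CPM after anti-MerTK and 12.6 to 34.6 CPM after anti-gp120. Clec9a was at 7.86 to 38.5 CPM after anti-MerTK and 5.74 to 25.3 CPM after anti-gp120. Fibroblast markers (7 genes) summed to 6.39 to 42.4 CPM after anti-MerTK and 7.66 to 31.0 CPM after anti-gp120. Endothelial markers (6 genes) summed to 72.0 to 121 CPM after anti-MerTK and 84.6 to 134 CPM after anti-gp120. T cell markers summed to at most 14.2 CPM and B cell markers to at most 40.2 CPM, both after anti-gp120. In each of these lists 0 genes were called. The part of any of these cells in the results was not tested. Anti-MerTK replicate 2 had the most extreme score on principal component 1 (29.8% of the variance), 46.6 against -28.3 to 16.0 for the other 9 libraries. Mertk itself averaged 78.9 ± 4.96 CPM after anti-MerTK and 91.1 ± 14.3 CPM after anti-gp120 (SD, n = 5 each), a log2 fold change of -0.21 that did not pass the test (edgeR adjusted p = 0.263).

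Of the 9 genes, 2 rose after anti-MerTK, the death ligand gene Tnfsf10 and the necroptosis effector gene Mlkl, and 0 fell. In the same test 3.22% of all 13588 genes changed, 1.85% higher and 1.38% lower (edgeR quasi-likelihood test, Benjamini-Hochberg adjusted p under 0.05 over all tested genes). The other 7 did not pass, including Bcl2l11, whose estimate was the lowest of the 9. The unadjusted p was under 0.05 for 4 of the 9 and for 20.9% of all genes. The groups did not overlap for Tnfsf10 and Mlkl alone, while this was so for 5.97% of all genes, 3.26% with anti-MerTK higher and 2.71% with it lower. The median log2 fold change was 0.11 over the 9 genes and -0.0059 over all tested genes. DESeq2 called 3 of the 9, Tnfsf10 and Mlkl higher and Bcl2l11 lower. It called more of all genes than edgeR did, 586 higher and 552 lower of 12538 with an adjusted p. Likewise limma-voom, which called Tnfsf10 and Mlkl higher, called 511 higher and 496 lower of 13588 genes. Because whole-population RNA was measured, fewer cells of a type and less RNA per cell cannot be told apart for any of these genes.

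**Figure D1:**
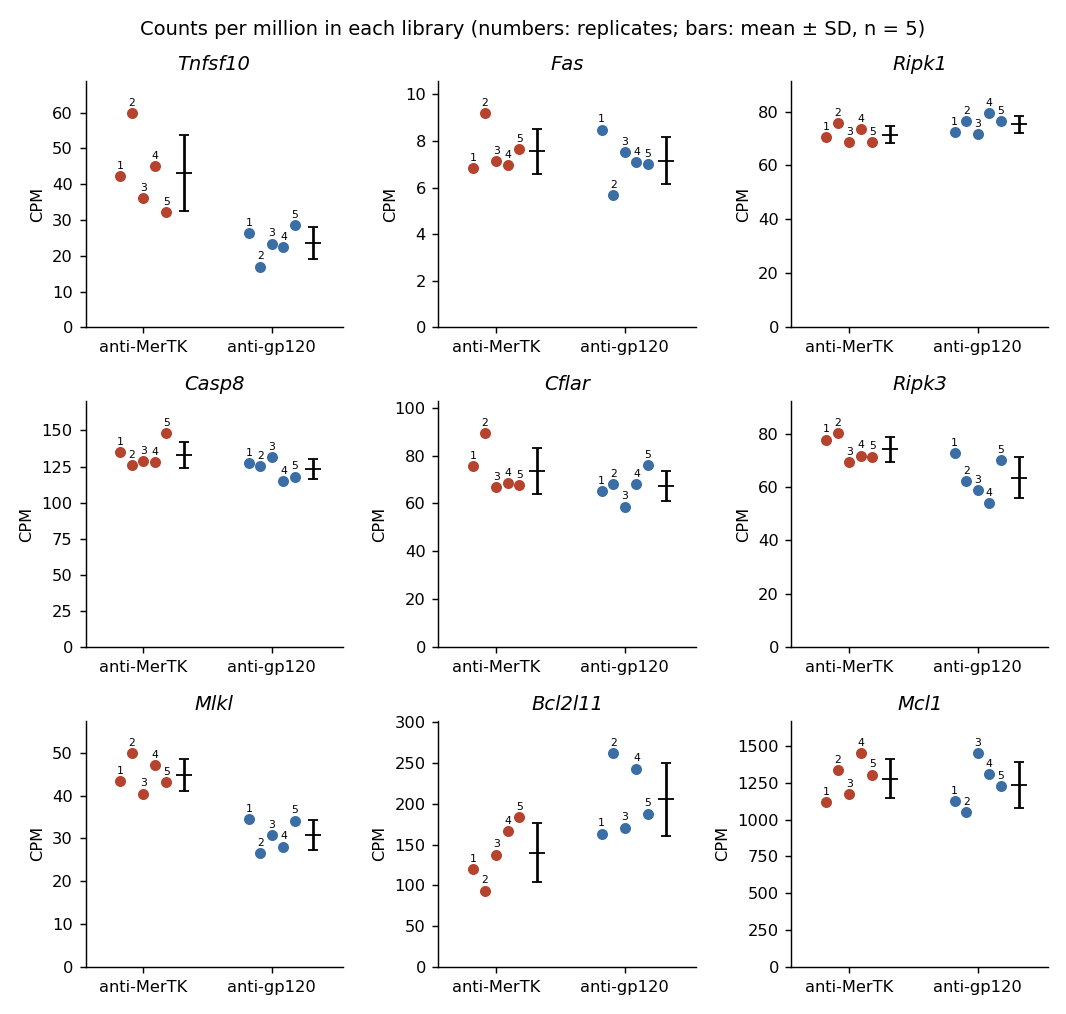
CPM of each of the 9 genes in every library (y axis, from 0), with anti-MerTK libraries left of anti-gp120 libraries; numbers are replicates and bars give mean ± SD (n = 5). The 5 anti-MerTK libraries lie above every anti-gp120 library for Tnfsf10 (32.2 to 59.9 against 16.99 to 28.5 CPM) and Mlkl (40.5 to 49.995 against 26.5 to 34.4 CPM), and the groups overlap for the other 7 genes.

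Tnfsf10 encodes TRAIL, a membrane-bound ligand that triggers apoptosis through the TRAIL receptor (Entrez 22035, GRCm38 chromosome 3, 27317077 to 27339665). It was measured at 42.2, 59.9, 36.1, 45.05 and 32.2 CPM in anti-MerTK replicates 1 to 5, and at 26.4, 16.99, 23.4, 22.3 and 28.5 CPM in anti-gp120 replicates 1 to 5. The lowest anti-MerTK library, replicate 5, was still above the highest anti-gp120 library, also replicate 5, and anti-MerTK replicate 2 was the highest of all 10. The means were 43.1 ± 10.6 CPM after anti-MerTK and 23.5 ± 4.39 CPM after anti-gp120 (SD, n = 5 each), a 1.83-fold rise with a 95% interval of 1.41 to 2.38 (log2 fold change 0.87, SE 0.17, edgeR adjusted p = 0.0256). Raw counts behind these values were 1155 to 1988 reads after anti-MerTK and 708 to 1162 reads after anti-gp120. The call was lost when some single libraries were left out, with an edgeR adjusted p of 0.0642 and 0.0536 when anti-MerTK replicate 1 or 4 was omitted, and 0.0554, 0.0526 and 0.0791 when anti-gp120 replicate 2, 3 or 4 was omitted. With anti-MerTK replicates 2 and 5 omitted together Tnfsf10 passed (log2 fold change 0.81, edgeR adjusted p = 0.0249). These were its highest and lowest anti-MerTK libraries, so omitting both narrows that group's spread and cannot show that the call is stable. No other pair was omitted.

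Mlkl encodes the pseudokinase that RIPK3 phosphorylates and that then permeabilises the plasma membrane (Entrez 74568, chromosome 8, 111311255 to 111338479). Its values were 43.4, 49.995, 40.5, 47.1 and 43.1 CPM in anti-MerTK replicates 1 to 5, and 34.4, 26.5, 30.8, 28.1 and 34.2 CPM in anti-gp120 replicates 1 to 5. All anti-MerTK libraries were above all anti-gp120 libraries, with a narrower spread in each group than for Tnfsf10. Mlkl averaged 44.8 ± 3.73 CPM after anti-MerTK and 30.8 ± 3.55 CPM after anti-gp120 (SD, n = 5 each), a 1.46-fold rise with a 95% interval of 1.27 to 1.66 (log2 fold change 0.54, SE 0.089, edgeR adjusted p = 0.0115). It ranked 51 by p among all 13588 genes, and Tnfsf10 ranked 171. Mlkl passed with each single library left out, with edgeR adjusted p between 0.0109 and 0.0440.

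Of 10 monocyte markers, 1 passed as higher (Plac8) and 0 as lower, their summed level was 669 to 908 CPM after anti-MerTK and 534 to 851 CPM after anti-gp120, and none was at 0 in all libraries. The mean log2 CPM of that list was 0.71 higher after anti-MerTK, with overlapping groups. With this score as a covariate the estimates were 0.97 for Tnfsf10 and 0.53 for Mlkl, and neither passed (edgeR adjusted p = 0.129 and 0.111). The score and treatment were correlated over the 10 libraries (0.68), so their parts in that fit cannot be told apart. NK cells also make TRAIL, and their 7 markers summed to 54.5 to 112 CPM after anti-MerTK and 23.0 to 62.9 CPM after anti-gp120. Nearly all of this was Klrk1, at 53.6 to 112 CPM after anti-MerTK and 22.6 to 62.3 CPM after anti-gp120 (log2 fold change 0.77, edgeR adjusted p = 0.144). The listed markers Ncr1, Gzma and Prf1, of which Gzma and Prf1 are not restricted to NK cells, were each at most 0.632 CPM in every library. No NK marker was at 0 in all libraries. The part of NK cells in the Tnfsf10 result was not tested.

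The promoter windows of the risen genes are shown beside those of the 2 members whose windows held the letters of an interferon-stimulated response element without a change in their RNA that passed the test. All 9 genes had at least 1 window (11 in all, from 250 bases before to 50 bases after an annotated start; sequence from RefSeq, GRCm38.p6). Capitals mark AANNGAAA, the core bound by interferon regulatory factors, on either strand, and the longer response element core, GAAA and GAAA with any 2 bases between, which contains it. The windows are chr3:27316827-27317126 on the plus strand for Tnfsf10, chr8:111338156-111338455 on the minus strand for Mlkl, chr13:34002624-34002923 on the plus strand for the second Ripk1 start and chr1:58711241-58711540 on the plus strand for Cflar, each written 5′ to 3′ along its gene.
Tnfsf10: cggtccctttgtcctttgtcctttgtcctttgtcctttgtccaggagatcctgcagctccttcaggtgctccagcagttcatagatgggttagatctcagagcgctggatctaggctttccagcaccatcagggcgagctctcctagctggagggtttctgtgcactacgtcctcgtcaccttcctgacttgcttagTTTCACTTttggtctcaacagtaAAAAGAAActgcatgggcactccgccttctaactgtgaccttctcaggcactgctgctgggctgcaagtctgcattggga
Mlkl: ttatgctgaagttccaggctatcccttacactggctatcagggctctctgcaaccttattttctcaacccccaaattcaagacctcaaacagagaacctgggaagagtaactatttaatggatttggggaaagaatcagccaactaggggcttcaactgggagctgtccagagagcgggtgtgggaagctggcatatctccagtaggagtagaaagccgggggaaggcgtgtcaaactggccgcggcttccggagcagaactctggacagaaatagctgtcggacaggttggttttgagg
Ripk1: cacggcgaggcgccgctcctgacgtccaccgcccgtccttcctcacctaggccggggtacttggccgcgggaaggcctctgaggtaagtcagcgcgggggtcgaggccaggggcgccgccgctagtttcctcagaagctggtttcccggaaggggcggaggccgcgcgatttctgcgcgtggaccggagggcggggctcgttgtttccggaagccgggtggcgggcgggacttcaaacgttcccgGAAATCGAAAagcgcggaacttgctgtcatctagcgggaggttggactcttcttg
Cflar: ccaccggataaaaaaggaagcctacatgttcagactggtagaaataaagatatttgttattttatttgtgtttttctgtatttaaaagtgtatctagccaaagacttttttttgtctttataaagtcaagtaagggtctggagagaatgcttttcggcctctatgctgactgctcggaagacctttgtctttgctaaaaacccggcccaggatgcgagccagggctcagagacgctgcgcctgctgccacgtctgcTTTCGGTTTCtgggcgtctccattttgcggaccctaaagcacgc

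In the Tnfsf10 window AANNGAAA occurred at positions -53 (minus strand) and -30 (plus strand) from the start, and the longer core did not occur. None of the motifs searched was found in this Mlkl window. The longer core was found in 2 of the 9 genes, at position -5 of the second Ripk1 window and at position 7 of the Cflar window, against 3.44% of all 32851 windows. The shorter AANNGAAA, which was added after the promoter letters were seen, was found in 6 of the 9 genes and in 23.9% of all windows. TTCNNNGAA, the gamma-activated site, occurred in Ripk1 at positions -108 and -11, the second of these overlapping its response element, and in Fas at position -93, against 8.3% of all windows. An NF-kB-like sequence, GGGA and CC with any 4 bases between, occurred in Bcl2l11 and in 20.7% of all windows. A member was counted if any of its windows held the motif, so its share of genes is not the same measure as a share of windows. Both strands were searched for each motif, and a match in letters is a description and not evidence of binding.

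Among the other ligands and receptors of the superfamily, 0 of 12 tested genes passed in either direction with edgeR, 2 had an unadjusted p under 0.05, and the median log2 fold change was -0.00097. DESeq2 called those 2 genes, Tnf and Tnfsf15, as higher, and limma-voom called Tnf. Over all genes DESeq2 called 586 of 12538 higher and limma-voom 511 of 13588. Tnf, the ligand for which the family is named, had 531, 501, 486, 416 and 472 CPM in anti-MerTK replicates 1 to 5, and 383, 266, 313, 292 and 445 CPM in anti-gp120 replicates 1 to 5. Only the anti-gp120 replicate 5 value reached into the anti-MerTK range. Its log2 fold change of 0.50 (SE 0.13) missed the threshold (edgeR adjusted p = 0.0584) and passed without anti-gp120 replicate 5 (edgeR adjusted p = 0.0175). Leaving out any other single library gave an edgeR adjusted p of 0.0551 to 0.162. Tnfsf15, which encodes the ligand TL1A, had a log2 fold change of 0.63 (SE 0.20, edgeR adjusted p = 0.102) and passed without anti-MerTK replicate 5 (edgeR adjusted p = 0.0356). Anti-MerTK replicate 2 held the highest Tnfsf15 value, 18.7 CPM, and without it the log2 fold change was 0.40 (edgeR adjusted p = 0.148). Tnfrsf12a, the receptor of the ligand TWEAK, had a log2 fold change of 0.19 (SE 0.11, edgeR adjusted p = 0.353). Fasl, the ligand of Fas, gave 0 to 2 reads a library in both groups and was not tested. Tnfrsf10b, the mouse death receptor for TRAIL, was barely detected, with 7 to 26 reads a library after anti-MerTK and 5 to 29 reads after anti-gp120, and its estimate did not pass (edgeR adjusted p = 0.960; named after its values were seen).

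Fas encodes the death receptor that assembles the caspase-8 complex (Entrez 14102, chromosome 19, 34290647 to 34327775). It was measured at 6.84, 9.20, 7.13, 6.98 and 7.64 CPM in anti-MerTK replicates 1 to 5, and at 8.49, 5.66, 7.54, 7.09 and 7.01 CPM in anti-gp120 replicates 1 to 5. The groups overlapped throughout, with the highest value in anti-MerTK replicate 2 and the lowest in anti-gp120 replicate 2. The fold was 1.05 with a 95% interval of 0.877 to 1.27 (log2 fold change 0.077, SE 0.12, edgeR adjusted p = 0.755). Its log2 fold change turned to -0.00049 without that anti-MerTK library and to -0.0013 without that anti-gp120 library.

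Ripk1, Casp8 and Cflar act together below the receptors. Ripk1, the scaffold kinase of the TNF receptor complex (Entrez 19766, chromosome 13, 34002225 to 34035170), had 70.6, 75.6, 68.7, 73.6 and 68.5 CPM in anti-MerTK replicates 1 to 5, and 72.4, 76.4, 71.7, 79.4 and 76.5 CPM in anti-gp120 replicates 1 to 5. On the log2 scale it had the narrowest range of the 9 genes over the 10 libraries, with SDs of 3.10 CPM after anti-MerTK and 3.18 CPM after anti-gp120 (n = 5 each). The fold of 0.948 had a 95% interval of 0.871 to 1.03 (log2 fold change -0.077, SE 0.056, edgeR adjusted p = 0.461). Serpinb6a, at 103 CPM on average, overlaps Ripk1 on the opposite strand, and it is not given whether counting used strand, so part of the reads in the overlap could belong to either gene.

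Casp8 encodes the initiator caspase of the receptor route (Entrez 12370, chromosome 1, 58795233 to 58847503). Its values were 135, 126, 129, 128 and 148 CPM in anti-MerTK replicates 1 to 5, and 127, 125, 132, 115 and 118 CPM in anti-gp120 replicates 1 to 5. Anti-MerTK replicate 5 was the highest, and the groups overlapped between 126 and 132 CPM. The fold of 1.08 had a 95% interval of 0.978 to 1.19 (log2 fold change 0.11, SE 0.066, edgeR adjusted p = 0.357). Cflar encodes c-FLIP, a catalytically inactive relative of caspase-8 that limits its activation (Entrez 12633, chromosome 1, 58711311 to 58758884), and it lies 36348 bp upstream of Casp8 in the same orientation. Cflar had 75.6, 89.5, 66.9, 68.5 and 67.6 CPM in anti-MerTK replicates 1 to 5, and 65.1, 68.2, 58.7, 67.9 and 76.1 CPM in anti-gp120 replicates 1 to 5. Anti-MerTK replicate 2 stood above the rest and the other libraries overlapped, giving a fold of 1.09 with a 95% interval of 0.952 to 1.26 (log2 fold change 0.13, SE 0.093, edgeR adjusted p = 0.450). Per length, c-FLIP RNA was 0.202 ± 0.0343 of caspase-8 RNA after anti-MerTK and 0.199 ± 0.0275 of it after anti-gp120 (ratio of RPKM, SD, n = 5 each).

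Of 23 adaptors, kinases and ubiquitin enzymes of the receptor complexes, 2 rose (Zbp1 and Rnf31), 2 fell (Cyld and Map3k7) and 19 did not pass. Their median log2 fold change was 0.038, and 3.22% of all tested genes changed. Zbp1, a nucleic acid sensor that activates RIPK3, ranged from 349 to 544 CPM after anti-MerTK and from 150.1 to 315 CPM after anti-gp120, without overlap, and its fold of 1.86 was close to that of Tnfsf10 (log2 fold change 0.89, SE 0.18, edgeR adjusted p = 0.0255). Rnf31, the catalytic subunit of the linear ubiquitin ligase LUBAC, had 40.0, 41.8, 33.8, 36.5 and 27.1 CPM in anti-MerTK replicates 1 to 5, and 27.0, 22.5, 22.3, 23.1 and 29.3 CPM in anti-gp120 replicates 1 to 5. Anti-MerTK replicate 5 lay within the anti-gp120 range and the other 4 lay above it (log2 fold change 0.53, SE 0.12, edgeR adjusted p = 0.0362). Cyld, a deubiquitinase that removes linear chains and favours death signalling by RIPK1, had 66.2, 64.5, 59.5, 70.4 and 67.3 CPM in anti-MerTK replicates 1 to 5, and 75.6, 84.2, 79.7, 87.7 and 83.4 CPM in anti-gp120 replicates 1 to 5. All anti-MerTK libraries were below all anti-gp120 libraries (log2 fold change -0.32, SE 0.064, edgeR adjusted p = 0.0230). Map3k7, which encodes TAK1, a kinase of survival signalling from the TNF receptor, also fell without overlap, to 36.8 to 41.9 CPM after anti-MerTK against 44.2 to 57.7 CPM after anti-gp120 (log2 fold change -0.32, SE 0.080, edgeR adjusted p = 0.0488).

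These 4 calls changed when single libraries were left out. Zbp1 did not pass without anti-MerTK replicates 1, 2, 3 or 4 (edgeR adjusted p = 0.0635, 0.0547, 0.0575 and 0.0524) or anti-gp120 replicate 4 (0.0791). Rnf31 did not pass without anti-MerTK replicates 1, 2, 3 or 4 (edgeR adjusted p = 0.0970, 0.0802, 0.0792 and 0.0681) or anti-gp120 replicates 2, 3 or 4 (0.0940, 0.0677 and 0.1003). Cyld did not pass without anti-MerTK replicates 1, 2 or 3 (edgeR adjusted p = 0.0606, 0.0547 and 0.0658) or anti-gp120 replicates 2 or 4 (0.0566 and 0.0719). Map3k7 did not pass without anti-MerTK replicates 1, 2, 3 or 4 (edgeR adjusted p = 0.107, 0.121, 0.122 and 0.0774) or anti-gp120 replicates 2, 3 or 4 (0.120, 0.071 and 0.126), nor with RLE size factors (0.0506), the authors' size factors (0.0501), no filter (0.0523) or 8 libraries (0.138). In limma-trend on RPKM its adjusted p was 0.0666. The directions were the same in each of these fits.

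Ripk3 encodes the kinase that phosphorylates MLKL (Entrez 56532, chromosome 14, 55784995 to 55788857). Its values were 77.7, 80.2, 69.3, 71.7 and 71.3 CPM in anti-MerTK replicates 1 to 5, and 72.5, 62.3, 58.8, 53.9 and 69.9 CPM in anti-gp120 replicates 1 to 5. All 5 anti-MerTK libraries were above the anti-gp120 mean of 63.5 CPM, but anti-gp120 replicates 1 and 5 reached into the anti-MerTK range. The fold was 1.17 with a 95% interval of 1.03 to 1.32 (log2 fold change 0.22, SE 0.085), with an unadjusted p of 0.0222 and an edgeR adjusted p of 0.161. In RPKM, Ripk3 RNA was 2.29, 2.05, 2.19, 1.95 and 2.12 times Mlkl RNA in anti-MerTK replicates 1 to 5, and 2.69, 3.01, 2.44, 2.46 and 2.62 times in anti-gp120 replicates 1 to 5. Every anti-MerTK ratio was below every anti-gp120 ratio, a description that carries no test. Ripk1 was 0.234 to 0.264 times Ripk3 after anti-MerTK and 0.257 to 0.380 times after anti-gp120, with overlap. Of 6 other genes of lytic death, 0 passed with edgeR, DESeq2 or limma-voom and 0 had an unadjusted p under 0.05. All 6 had positive estimates, with a median of 0.12 on the log2 scale, as did 49.0% of all tested genes. Casp1, Casp4 and Gsdmd, the inflammatory caspases and the pore-forming gasdermin of pyroptosis, had log2 fold changes of 0.22, 0.18 and 0.16 (edgeR adjusted p = 0.332, 0.383 and 0.287).

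**Figure D2:**
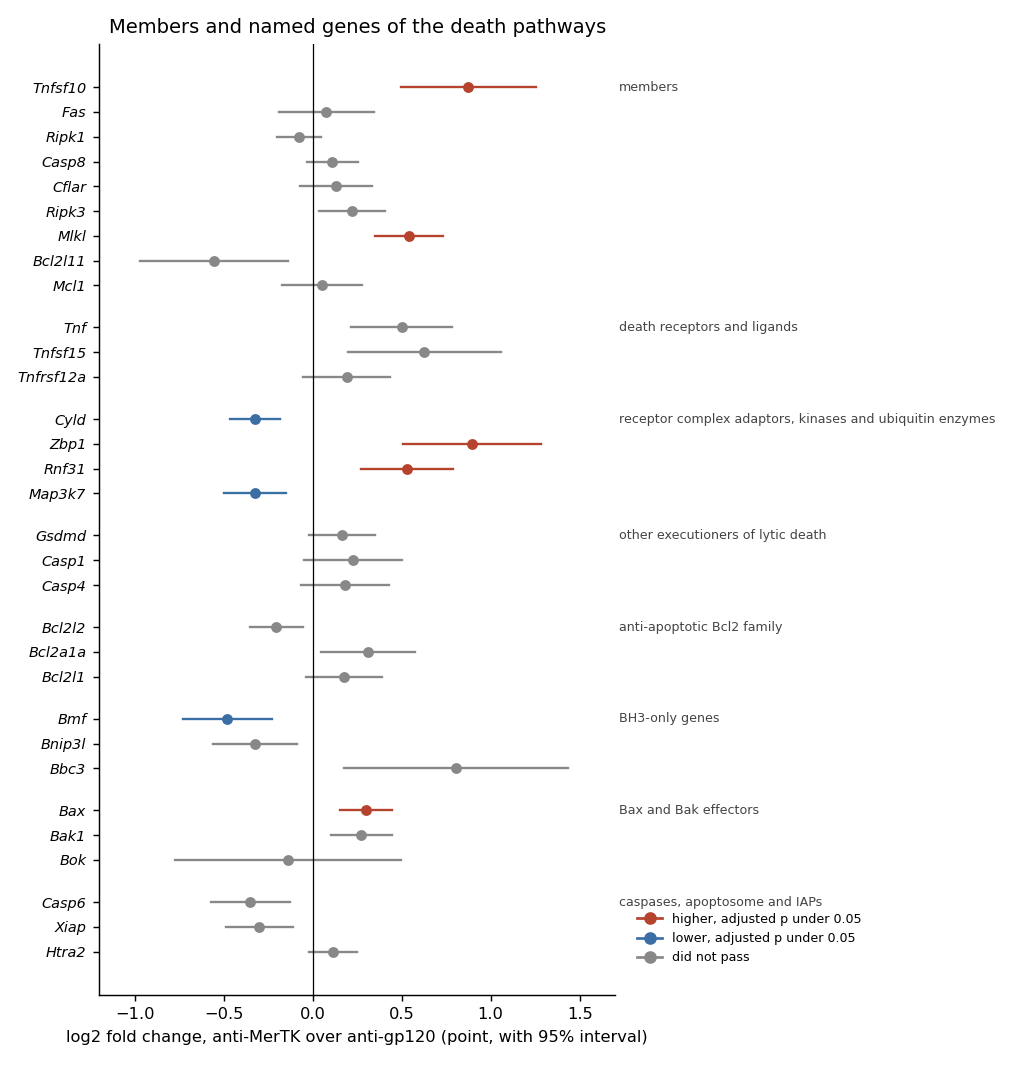
Log2 fold change (x axis, anti-MerTK over anti-gp120) with its 95% interval for the 9 genes, at the top, and for the named genes of 7 related lists below them; red points are higher and blue points lower at an adjusted p under 0.05, and grey points did not pass. Tnfsf10 (0.87) and Mlkl (0.54) are the 2 red points among the 9, and Bcl2l11 (-0.55) lies farthest to the left.

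Bcl2l11 encodes BIM, a BH3-only protein that binds all the survival members of the family (Entrez 12125, chromosome 2, 128126038 to 128162547). It was measured at 120.1, 93.4, 138, 166 and 184 CPM in anti-MerTK replicates 1 to 5, and at 163, 263, 171, 243 and 188 CPM in anti-gp120 replicates 1 to 5. All 5 anti-MerTK libraries lay below the anti-gp120 mean, but anti-MerTK replicates 4 and 5 lay within the anti-gp120 range. The means were 140.2 ± 35.9 CPM after anti-MerTK and 206 ± 44.6 CPM after anti-gp120 (SD, n = 5 each), and the fold of 0.682 had a 95% interval of 0.511 to 0.910. The log2 fold change of -0.55 (SE 0.19) had an unadjusted p of 0.0137 and did not pass (edgeR adjusted p = 0.129). DESeq2 gave an adjusted p of 0.0373, and limma-voom 0.0545. No single library brought the edgeR adjusted p under the threshold, the lowest being 0.0644 without anti-MerTK replicate 5.

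Mcl1, a short-lived survival protein that sequesters BIM and BAK (Entrez 17210, chromosome 3, 95656944 to 95663179), had the highest level per length of the 9 (332 RPKM on average after anti-MerTK and 320.3 RPKM after anti-gp120). It had 1118, 1333, 1175, 1453 and 1305 CPM in anti-MerTK replicates 1 to 5, and 1124, 1053, 1452, 1308 and 1226 CPM in anti-gp120 replicates 1 to 5. The ranges of the groups nearly coincided, and the fold of 1.04 had a 95% interval of 0.887 to 1.21 (log2 fold change 0.051, SE 0.10, edgeR adjusted p = 0.813). Its log2 fold change was -0.0051 without anti-gp120 replicate 2. In RPKM, Mcl1 RNA was 17.4, 26.7, 16.0, 16.4 and 13.3 times Bcl2l11 RNA in anti-MerTK replicates 1 to 5, and 12.9, 7.51, 15.9, 10.1 and 12.2 times in anti-gp120 replicates 1 to 5. The anti-MerTK ratio was above the highest anti-gp120 ratio in replicates 1 to 4 and below it in replicate 5.

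Among the remaining BCL2 family genes tested (6 survival, 8 BH3-only and 3 effector genes) 1 rose and 1 fell with edgeR, Bax and Bmf. Of all tested genes 1.85% were higher and 1.38% lower. Bax, which forms the pore in the outer mitochondrial membrane, had 124, 137, 132, 116 and 120.2 CPM in anti-MerTK replicates 1 to 5, and 110.4, 94.98, 99.8, 98.2 and 107 CPM in anti-gp120 replicates 1 to 5. The groups did not overlap (log2 fold change 0.30, SE 0.067, edgeR adjusted p = 0.0341). Its partner Bak1 did not overlap either, at 231 to 249.9 CPM after anti-MerTK and 172 to 219 CPM after anti-gp120, and did not pass with edgeR (log2 fold change 0.27, SE 0.079, edgeR adjusted p = 0.0794). DESeq2 and limma-voom called Bak1 higher (adjusted p = 0.0214 and 0.0362). Over all tested genes the groups did not overlap for 3.26% with anti-MerTK higher and 2.71% with it lower. Bok, another effector, averaged 0.325 CPM after anti-MerTK and 0.362 CPM after anti-gp120 (log2 fold change -0.14, SE 0.29, edgeR adjusted p = 0.824). Bmf, a BH3-only gene like Bcl2l11, had 8.80, 8.49, 8.68, 11.4 and 8.53 CPM in anti-MerTK replicates 1 to 5, and 10.1, 13.2, 12.9, 14.6 and 13.2 CPM in anti-gp120 replicates 1 to 5. It fell, with anti-MerTK replicate 4 above anti-gp120 replicate 1 as the only overlap (log2 fold change -0.48, SE 0.12, edgeR adjusted p = 0.0460).

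Of 8 tested BH3-only genes other than Bcl2l11, Bmf was the only one to pass with edgeR, 4 had an unadjusted p under 0.05, and the list's median log2 fold change was -0.088. Bbc3, which encodes PUMA, had a positive estimate of 0.81 (SE 0.29, edgeR adjusted p = 0.142), which was 0.53 without anti-MerTK replicate 2, and DESeq2 called it higher (adjusted p = 0.0378). Bnip3l, a mitophagy receptor, had a negative one of -0.32 (SE 0.11, edgeR adjusted p = 0.117), and limma-voom called it lower (adjusted p = 0.0318). Of 6 survival genes other than Mcl1, 0 passed with edgeR, DESeq2 or limma-voom and 2 had an unadjusted p under 0.05. Bcl2l1 (BCL-XL) had a log2 fold change of 0.17, Bcl2l2 (BCL-W) of -0.20 and Bcl2a1a (A1) of 0.31 (edgeR adjusted p = 0.330, 0.116 and 0.170). Bcl2a1a, Bcl2a1b and Bcl2a1d are near-identical copies that can lose or share uniquely aligned reads, so their separate values are uncertain. Of 16 caspases, apoptosome genes and inhibitors of apoptosis, 0 passed with edgeR and 2 had an unadjusted p under 0.05, with a median log2 fold change of -0.022. Casp6, an executioner caspase, and Xiap, which inhibits caspases directly, had log2 fold changes of -0.35 and -0.30 (edgeR adjusted p = 0.0828 and 0.0841), and DESeq2 and limma-voom called both as lower. Htra2, a mitochondrial protease, had 0.11 (edgeR adjusted p = 0.320). Over all 7 lists, which hold 79 genes, 3 of 74 tested genes were higher and 3 lower with edgeR. Of all 13588 genes 1.85% were higher and 1.38% lower. The unadjusted p was under 0.05 for 20 of the 74 and for 20.9% of all genes.

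Several of these calls also changed with 1 library left out. Bax did not pass without anti-MerTK replicates 1, 2 or 3 (edgeR adjusted p = 0.0840, 0.0883 and 0.0944) or anti-gp120 replicates 2, 3 or 4 (0.0940, 0.0611 and 0.103). Bmf did not pass without anti-MerTK replicates 1, 2, 3 or 5 (edgeR adjusted p = 0.107, 0.102, 0.119 and 0.0580) or anti-gp120 replicates 2, 3, 4 or 5 (0.103, 0.0718, 0.126 and 0.0671). Casp6 and Bnip3l passed without anti-MerTK replicate 5 (edgeR adjusted p = 0.0142 and 0.0159). They did not pass with any other single library left out (edgeR adjusted p up to 0.181 and 0.263). Bak1 passed without anti-gp120 replicate 5 and Xiap without anti-gp120 replicate 1 (edgeR adjusted p = 0.0474 and 0.0424). With other single libraries left out neither passed (edgeR adjusted p up to 0.204 for Bak1 and 0.212 for Xiap).

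Levels were compared between genes per length, in the deposited RPKM. The order of the 9 means was the same in both groups: Mcl1, Casp8, Ripk3, Bcl2l11, Mlkl, Ripk1, Cflar, Tnfsf10 and Fas. Mcl1 stood at 332 ± 33.7 RPKM after anti-MerTK and 320.3 ± 42.8 RPKM after anti-gp120, and Fas at 4.21 ± 0.536 RPKM after anti-MerTK and 3.99 ± 0.587 RPKM after anti-gp120 (SD, n = 5 each). Casp8 (44.0 ± 3.11 RPKM after anti-MerTK and 40.7 ± 2.29 RPKM after anti-gp120) and Ripk3 (37.8 ± 2.34 RPKM after anti-MerTK and 32.4 ± 3.91 RPKM after anti-gp120) were well above their partners Cflar and Ripk1, whose highest mean was 9.91 RPKM, that of Ripk1 after anti-gp120. The size of these gaps depends on the gene lengths used for RPKM. In CPM, Ripk3 and Ripk1 averaged 74.1 and 71.4 after anti-MerTK, and 63.5 and 75.3 after anti-gp120. Casp8 and Cflar averaged 133 and 73.6 CPM after anti-MerTK, and 123 and 67.2 CPM after anti-gp120. Neighbours in the order whose ranges overlapped after anti-MerTK were Bcl2l11 and Mlkl, Ripk1 and Cflar, and Cflar and Tnfsf10. After anti-gp120 the overlapping neighbours were Ripk3 and Bcl2l11, Mlkl and Ripk1, and Tnfsf10 and Fas. Tnfsf10 was thus next to Cflar in level after anti-MerTK, at 8.75 ± 2.14 RPKM, and next to Fas after anti-gp120, at 4.77 ± 0.909 RPKM (SD, n = 5 each).

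**Figure D3:**
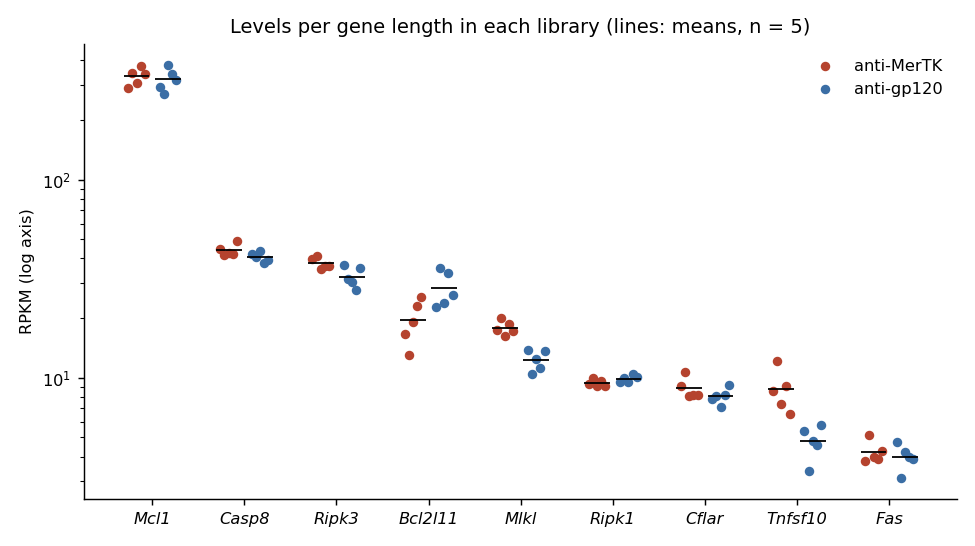
RPKM (log axis) of the 9 genes in each library, ordered by level, with anti-MerTK libraries left of anti-gp120 libraries and lines at the means (n = 5). Mcl1 averages 332 RPKM after anti-MerTK and 320.3 RPKM after anti-gp120, and the groups are apart for Tnfsf10 (6.56 to 12.1 RPKM after anti-MerTK against 3.40 to 5.79 RPKM after anti-gp120) and Mlkl (16.2 to 19.9 RPKM after anti-MerTK against 10.4 to 13.7 RPKM after anti-gp120).

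The 9 genes did not vary as a block across libraries. Within groups, the deviations of log2 CPM from the group mean had the highest correlation of all pairs over all 10 libraries for Tnfsf10 and Mlkl (Pearson r = 0.87, Spearman rho = 0.93 over 10 libraries, and r = 0.79 without the 2 libraries farthest from the median of Tnfsf10). Mlkl ranked 195 in likeness to Tnfsf10 among 10187 genes. Ripk3 and Cflar had r = 0.53 over 10 libraries and r = 0.94 without the 2 farthest in Ripk3. Tnfsf10 and Bcl2l11 went opposite ways (r = -0.79, rho = -0.76, and r = -0.58 without those 2), as did Ripk1 and Casp8 (r = -0.78, rho = -0.92, and r = -0.66 without the 2 farthest in Ripk1). Casp8 and Cflar, although neighbours on the chromosome, had r = -0.55 (rho = -0.58). The same deviations were compared with those of the mean log2 CPM of each of the 11 marker lists. There r ran from -0.78 (fibroblast) to 0.086 (NK cell) for Tnfsf10. For Bcl2l11 it ran from -0.17 (NK cell) to 0.63 (fibroblast), and for Mlkl from -0.66 (endothelium) to 0.38 (NK cell). These values describe 10 libraries that share their depth and composition and carry no test. Anti-MerTK replicate 2 was highest of its group in Tnfsf10, Fas, Ripk1, Cflar, Ripk3 and Mlkl and lowest in Bcl2l11, and anti-gp120 replicate 2 was lowest of its group in Tnfsf10, Fas and Mlkl and highest in Bcl2l11.

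**Figure D4:**
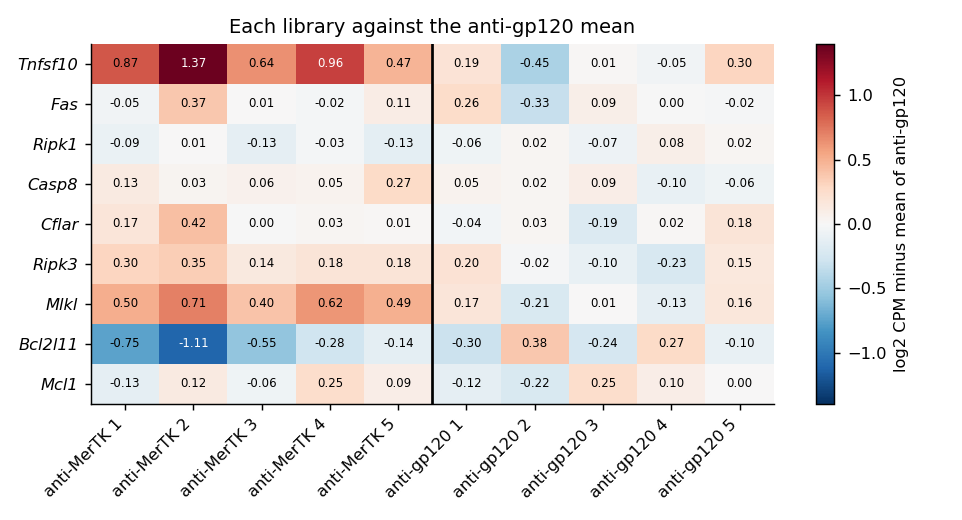
Log2 CPM of the 9 genes in each library (columns, anti-MerTK left of the line and anti-gp120 right of it) minus the mean of the anti-gp120 libraries. Tnfsf10 reaches 1.37 and Bcl2l11 -1.11 in anti-MerTK replicate 2, while Ripk1 stays between -0.13 and 0.077 in all 10 libraries.

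Among 10187 named genes of at least 1 on the log2 CPM scale, the genes whose within-group deviations were most like those of each member were listed. For Tnfsf10 they were Parp9, Il2rg and Ifi209 (r = 0.99, 0.97 and 0.97 over 10 libraries), of which Ifi209 rose (log2 fold change 0.77, edgeR adjusted p = 0.0103), while Parp9 and Il2rg were at 0.30 and 0.17 on the same scale without passing (edgeR adjusted p = 0.176 and 0.473). For Mlkl they were Cd274, Gbp4 and Gbp5 (r = 0.97, 0.96 and 0.96), with log2 fold changes of 0.21, 0.0055 and 0.12 that did not pass (edgeR adjusted p = 0.570, 0.989 and 0.679). For Bcl2l11 they were Snx18, Litaf and Cyth1 (r = 0.98, 0.98 and 0.97). For Ripk1 they were Zeb2, Usp25 and Sos1, for Ripk3 Alyref2, Hk3 and Zdhhc16, and for Casp8 Zscan21, Exosc9 and Sec23b. For Cflar they were Fam189b, Cdyl2 and Tepsin, for Fas Mrpl1, Arf6 and Ciart, and for Mcl1 Nipsnap2, Hint3 and Gpbp1. The r values of these last 6 sets lay between 0.92 and 0.98. They describe 10 libraries, carry no test, and every member had such genes.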

How the data were processed

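RNA-seq counts of 10 libraries of polyadenylated RNA, 5 per antibody, were analysed. Reads were aligned with GSNAP to GRCm38, per the submitters' processing notes. For the aligner's version, the annotation release, the counter and the strand setting, nothing is given in the sources used here. The deposited counts are raw numbers of uniquely aligning reads per gene model, per the file headers. The deposited RPKM values carry the authors' size-factor adjustment, per the file headers. They were used for levels between genes and, on the scale log2(RPKM + 0.1), for an alternative test. No 2 libraries of a group agreed within sampling noise (smallest chi-square per degree of freedom 29.0).

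Symbols for Entrez identifiers came from RefSeq (GRCm38.p6, 31049 of 36528) and GENCODE M21 (77). Genes were kept by filterByExpr and tested with edgeR 4.0.16 (quasi-likelihood, TMM, robust, limma 3.58.1, R 4.3.3), with treatment as the only term, since the labels give no batch or pairing. Tests are two-sided, and p-values were adjusted by Benjamini-Hochberg over all 13588 genes. SEs are the log2 fold change over the root of F, and the 95% intervals use the fit's t quantiles. The fit was tested on simulated data with the means, dispersions and sizes of these libraries (13588 genes). Changes were placed in 200 genes above a minimum level, and genes varied independently of each other. There the fit recovered 95% of 2-fold and 72.7% of 1.5-fold changes with 4.01% false calls. Genes of the real libraries vary together, so these rates need not hold for them.

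The 9 genes, the 7 related lists and the 11 marker lists were chosen with earlier results of these data known. Named genes are the 9, Mertk, every called gene and at least the 3 of smallest p in each list, and the 3 genes most alike in deviation (log2 CPM with a prior count of 2) to each of the 9; others are said to be named after their values were seen. The single markers were named for what they mark. The alternatives were RLE, upper quartile and the authors' size factors, no filter, 5 CPM in 5 libraries, DESeq2 1.42.0, limma-voom with quality weights, limma-trend on RPKM, 1 surrogate variable (sva 3.50.0), the monocyte score as covariate, leaving out each library, 8 libraries, and an adjusted p under 0.01. Figures and tables used Python 3.11.15, numpy 2.4.6, pandas 2.3.3, scipy 1.17.1 and matplotlib 3.10.9.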

Additional observations from a re-analysis of the deposited data

Results flagged for a closer look

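In 3 cases a single library stood far from the other 4 of its group. Among 72 groups of 5 values checked (named genes and ratios), a gap to the nearest value above 0.71 of the group's range was met 3 times, where chance gives about 1 in 20 groups. Bmf was at 11.4 CPM in anti-MerTK replicate 4 and at 8.49 to 8.80 CPM in the other anti-MerTK libraries. Replicate 4 alone of these lies within the anti-gp120 range of 10.1 to 14.6 CPM. Casp1 was at 158 CPM in anti-MerTK replicate 2 and at 109.8 to 118 CPM in the other anti-MerTK libraries. Mertk was at 70.5 CPM in anti-MerTK replicate 3 and at 79.4 to 82.7 CPM in the other anti-MerTK libraries. None of the 9 genes had such a value in either group.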

How the results depend on the processing

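Tnfsf10 and Mlkl both passed under 9 of the 10 alternatives that kept all libraries and the 0.05 threshold. Members called higher fell to 0 with the monocyte score as a covariate and to 0 at an adjusted p under 0.01, and ranged from 1 to 2 with single libraries left out. Members called lower were 1 with DESeq2 and 0 with any library left out. Fas had a log2 fold change of -0.034 over 8 libraries and -0.0013 to 0.14 with single libraries left out, and Mcl1 -0.0051 to 0.12. Over 32 named genes and 21 settings, 585 of 671 values kept their call, 61 lost it, 21 gained it and 4 reversed; among members, 177 of 189 kept it, 7 lost it and 1 gained it.

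Over all genes, 251 were called higher, with 586 by DESeq2, 511 by limma-voom, 381 with 1 surrogate variable, 9 with the monocyte score, 152 over 8 libraries, 13 at an adjusted p under 0.01 and 55 (without anti-gp120 replicate 4) to 370 (without anti-MerTK replicate 5) with single libraries left out. Called lower were 187, with 552 by DESeq2, 496 by limma-voom, 0 with the monocyte score, 52 over 8 libraries, 2 at an adjusted p under 0.01, 110 by limma-trend on RPKM and 15 (without anti-gp120 replicate 4) to 284 (without anti-MerTK replicate 5) with single libraries left out. In the 7 lists, 3 were higher (7 by DESeq2, 5 by limma-voom, 5 with the surrogate variable, 0 with the monocyte score, 1 over 8 libraries, 0 to 7 with libraries left out) and 3 lower (5 by DESeq2, 6 by limma-voom, 1 by limma-trend, 0 with the monocyte score, 1 over 8 libraries, 0 to 4 with libraries left out). The causes were not tested. No paired analysis was possible because the replicate numbers follow accession order and pair no libraries. In the simulated data, with 5 libraries a group, 1.5-fold changes were recovered less often than 2-fold ones.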
